A study of Drosophila melanogaster with 40 samples.

Results

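The comparison described here sets trained Hsp70-null flies against trained w1118 flies at day 23. It uses the 4 libraries labelled Hsp70-null and trained at that age and the 4 labelled w1118 and trained, 8 of the 40 libraries in the series, and was read across all genes. RNA came from the legs of male Drosophila melanogaster, 15 flies to a pool, and was sequenced from polyadenylated RNA with strand kept. The w1118 flies are the control strain. The Hsp70-null flies carry the deficiencies Df(3R)Hsp70A and Df(3R)Hsp70B on a w1118 background, so that the 6 heat-inducible Hsp70 genes of chromosome 3R are deleted. Both groups were trained from day 4 to day 22 of adult life, 19 days in all, in tubes turned every 15 s so that the flies climbed again and again, in sessions that grew from 30 to 60 and then 90 min, and were sampled 24 h after the last session. Untrained flies of both strains at day 23, 4 pools each, are used for one further comparison. The strains came from different stock centres, so the deletions and all other sequence differences between the strains cannot be told apart. The labels give pools of flies but not whether the pools were reared apart, so the p-values measure a spread between pools. That spread was estimated from all 40 libraries together.

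Hsp70 proteins are chaperones: they bind unfolded stretches of other proteins, hold them with the help of ATP and J-domain partners, and release them to refold or to be degraded. In Drosophila the inducible copies are nearly silent in unstressed tissue and are switched on within minutes by the heat shock factor Hsf, while the cognate Hsc70 genes are expressed at all times. In muscle, chaperones also act on the proteins of the Z disc and of thick filaments, which are loaded and damaged by contraction. Fly legs hold tubular muscle, cuticle, sensory neurons and their support cells, fat body, tracheae and blood cells, so leg RNA is a mixture and is not muscle RNA alone.

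Total counts were 22329878 to 28254083 in the w1118 libraries and 22833325 to 30076080 in the Hsp70-null libraries, so the groups overlapped in depth. Levels below are in CPM, the usual depth-scaled count unit, with the scaled library size as the depth, and the sums over tissue markers are CPM of the total count. The 13 skeletal muscle markers, among them Mhc and bt, were detected in all 8 libraries and summed to 19833 to 20838 CPM in w1118 against 18906 to 24129 CPM in Hsp70-null. RNA of 3 other organs stood out in single libraries. The 25 eye markers (rhodopsins, arrestins and the phototransduction cascade) summed to 15323 CPM in Hsp70-null replicate 1 and to 383 to 688 CPM in the other 7 libraries. Of that sum, ninaE, the main rhodopsin of the eye, gave 7095 CPM, against 0.704 to 125 CPM elsewhere. The 28 accessory gland markers, genes for seminal fluid proteins, summed to 2042 CPM in Hsp70-null replicate 2 and to 3.15 to 19.1 CPM in the others. The 45 testis markers summed to 1607 CPM in w1118 replicate 1, to 349 CPM in Hsp70-null replicate 1 and to 200.4 to 304 CPM in the other 6 libraries. A single marker, bol, was at 186 to 321 CPM in all 8 libraries and gave most of each sum outside w1118 replicate 1. None of the 45 was at 0 in w1118 replicate 1 or Hsp70-null replicate 1, and 12 to 26 were at 0 in the rest. The testis gene loopin-1 was at 136 CPM in w1118 replicate 1 and at 6.72 CPM in Hsp70-null replicate 1, with 0 to 0.0827 CPM in the others. These 3 libraries, w1118 replicate 1 and Hsp70-null replicates 1 and 2, are called the 3 marked libraries, and results are given with and without them.

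Gut markers varied in both strains. The 32 genes, mostly digestive proteases, summed to 9006, 1886, 1999.6 and 3468 CPM in w1118 replicates 1 to 4 and to 1969.5, 10597, 10904 and 17003 CPM in Hsp70-null replicates 1 to 4. The groups overlapped, and 0 of the 31 gut markers tested passed the test (edgeR; 4 had an unadjusted p under 0.05 and DESeq2 called 3). Fat body markers summed to 13344 to 17411 CPM in w1118 against 9305 to 13701 CPM in Hsp70-null, blood cell markers to 1047 to 1111 and 1077 to 1481 CPM, and neuron markers to 1596 to 1955 and 1190.5 to 2752 CPM, with the highest neuron sum in Hsp70-null replicate 1. Of 12 fat body markers tested 0 rose and 3 fell, and 0 were called without the 3 marked libraries. Of 11 blood cell markers 3 rose and 0 fell, and 3 were called higher without the 3. Of these NimC1 and Pxn, a phagocytosis receptor and peroxidasin, were called both ways (0.52 and 0.51, adjusted p = 0.00611 and 0.00353). lz was called with all libraries alone (adjusted p = 0.0221; 0.951 without the 3) and Hml without the 3 alone (0.0196; 0.155 with all). In such bulk samples, fewer cells of a type and less RNA per cell cannot be told apart. Whether these sums have a part in the strain differences below was not tested beyond the values given.

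**Figure D1:**
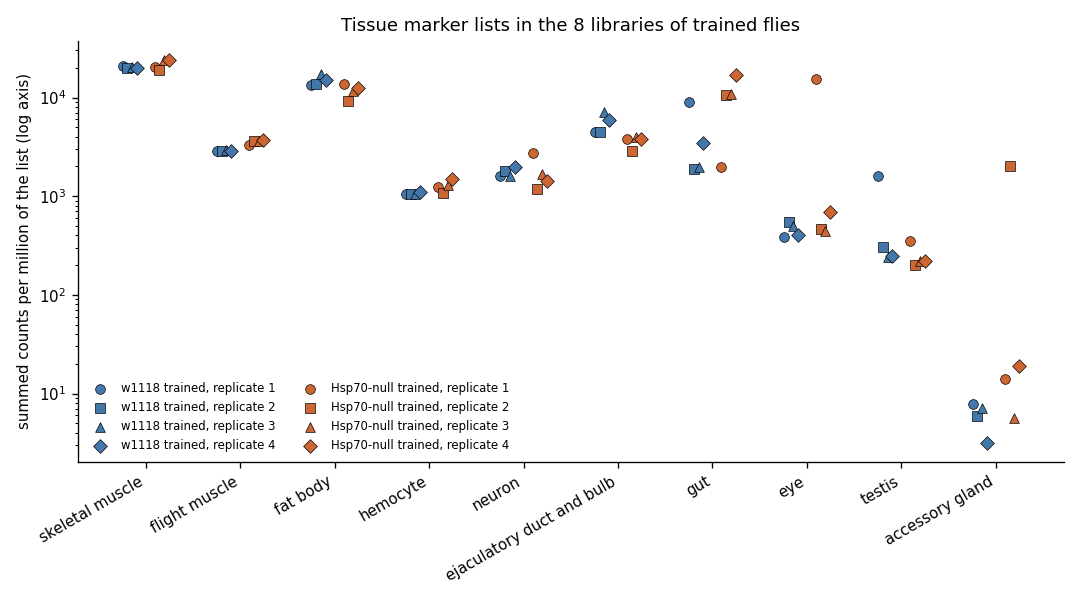
Summed CPM (log axis) of 10 tissue marker lists in each library of trained flies, w1118 in blue and Hsp70-null in orange, with a symbol for each replicate. Eye markers stood out in Hsp70-null replicate 1 (15323), accessory gland markers in Hsp70-null replicate 2 (2042) and testis markers in w1118 replicate 1 (1607), while skeletal muscle markers lay between 18906 and 24129 in all 8.

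The strains differed widely after training. Of 12939 features tested, 2016 (15.6%) passed an adjusted p of 0.05 (edgeR, quasi-likelihood), 1088 (8.41%) higher and 928 (7.17%) lower in Hsp70-null. Each count of called list members below is to be read beside these shares. The libraries of the groups did not overlap for 1556 of the called features (12.0% of those tested), where 2206 of all tested features (17.0%) had no overlap. Most calls were small, with a median absolute log2 fold change of 0.76, and 827 were more than 2-fold (498 higher, 329 lower). The median log2 fold change over all tested features was −0.011. Of the calls, 244 were past 4 on the log2 scale in either direction, among them genes that were close to silent in one strain.

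Without the 3 marked libraries 1261 features were called (9.75%), 679 higher and 582 lower. Of the 2016 calls, 1164 (9.0% of the features tested, 57.7% of the calls) held with the same sign, 630 higher and 534 lower. The highest Hsp70-null library was replicate 1 or replicate 2 for 163 and 213 of the 458 higher calls that were lost, and for 95 and 134 of the 630 that held. For the 394 lower calls that were lost, the highest w1118 library was replicate 1 to 4 for 106, 82, 151 and 55. The fit without the 3 also has fewer libraries in each group. Whether calls were lost through RNA of other organs or through fewer libraries was not tested. Among the eye markers 20 of 25 were called higher with all libraries and 0 without the 3. Among the accessory gland markers these counts were 20 and 1 of 24 tested. All 35 testis markers tested had a log2 fold change below 0, with a median of −3.7, but 1 was called (topi, a meiotic arrest factor, −1.41, SE 0.48, adjusted p = 0.0419), and it was not called without the 3 (adjusted p = 0.736).

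**Figure D2:**
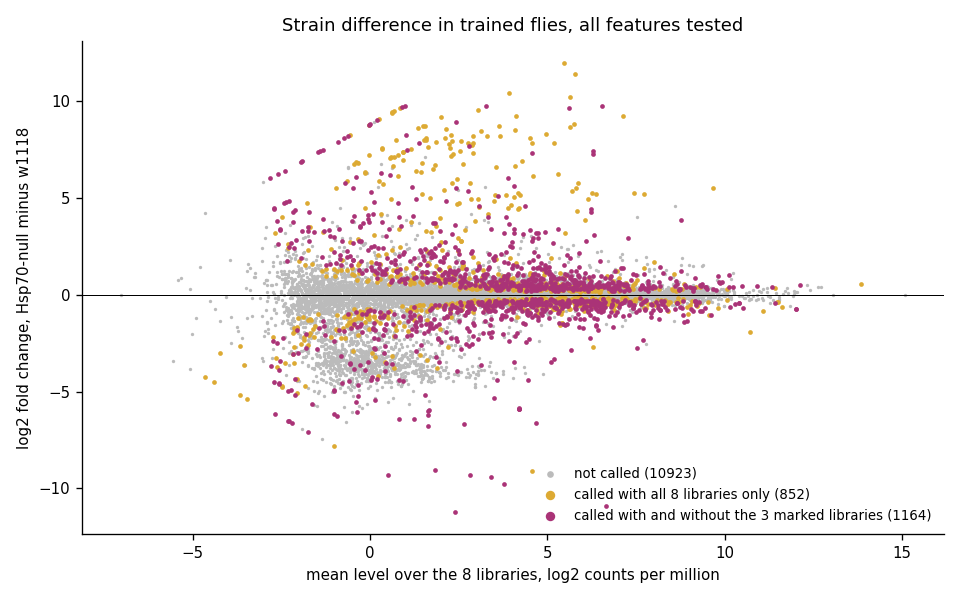
Mean level over the 8 libraries (log2 CPM) against the log2 fold change, Hsp70-null minus w1118, for each tested feature with a count in these libraries. Purple points (1164) were called with one sign with and without the 3 marked libraries, yellow points (852) only with all 8, and grey points were not called; the yellow points above a log2 fold change of 4 include the eye and accessory gland genes.

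The 6 deleted genes were close to the floor of detection in both strains and are near-identical copies, so a read may have been given to the wrong copy. Hsp70Ab (3R, 11958535 to 11960909, BDGP6.54) was at 0.103, 0.261, 0.645 and 0.236 CPM in w1118 replicates 1 to 4 and had no count in any Hsp70-null library. Hsp70Aa was at 0.101 to 0.258 CPM in w1118 and again had no count in Hsp70-null. With a floor of 3 counts per library they were at least 2.85-fold and at least 1.43-fold lower (adjusted p = 0.00401 and 0.0174). Hsp70Bc was at 0.228 to 0.86 CPM in w1118 and had 1 count in Hsp70-null, a ratio of 52.4 with a 95% counting interval of 9.4 to 2069 (adjusted p = 0.00289). Hsp70Bbb had 7 counts in w1118 and 0 in Hsp70-null and did not pass the test (adjusted p = 0.125), and Hsp70Ba, with 2 counts against 0, was too low to be tested. One copy went against the label. Hsp70Bb was at 0.821, 0.294, 1.29 and 0.304 CPM in w1118 and at 1.86, 0.653, 1.66 and 1.61 CPM in Hsp70-null (log2 fold change 1.10, SE 0.94, adjusted p = 0.475). Its groups overlapped, and reads were assigned to this gene in the strain labelled as lacking it. Of the 3 calls, Hsp70Aa and Hsp70Bc were lost without the 3 marked libraries (adjusted p = 0.139 and 0.094). With marker sums as covariates none of the 3 passed (adjusted p = 0.114 for Hsp70Ab, 0.212 for Hsp70Aa and 0.0778 for Hsp70Bc), and with the compared groups alone or a minimum of 10 counts in every library these 3 were too low to be tested.

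Among the other chaperones, the constitutive Hsc70-4 was higher in Hsp70-null. It was at 1592, 1750.4, 1677 and 1515 CPM in w1118 and at 2031, 2562, 2174 and 2019.9 CPM in Hsp70-null, with no overlap (log2 fold change 0.43, SE 0.09, adjusted p = 0.000566; 0.35, adjusted p = 0.036 without the 3 marked libraries). Hsc70-4 encodes the main cytosolic cognate of Hsp70. In all, 4 of 22 heat shock and chaperone genes tested rose and 0 fell, with a list median of 0.26, and 2 were called without w1118 replicate 4. The small heat shock protein Hsp67Bc rose from 0.587 ± 0.152 to 1.78 ± 0.705 CPM (SD, n = 4; log2 fold change 1.59, SE 0.35, adjusted p = 0.00122), and STUB1, the CHIP ubiquitin ligase that works with Hsp70, rose by 0.23 (SE 0.07, adjusted p = 0.028; 0.528 without the 3). l(2)efl, an alpha-crystallin-like chaperone of muscle, was at 159.9, 145, 266 and 161 CPM in w1118 and at 195, 195, 443 and 262 CPM in Hsp70-null, with overlap (0.58, SE 0.20, adjusted p = 0.0405). Its call was lost without Hsp70-null replicate 3 or 4 or w1118 replicate 1, 2 or 4 (adjusted p of 0.0571 to 0.39), while without the 3 marked libraries it was 0.89 (adjusted p = 0.00637). Hsp68, the inducible relative of Hsp70 that is not deleted, was at 20.1 to 28.8 CPM in w1118 against 25.1 to 46.6 CPM in Hsp70-null and did not pass the test (0.36, SE 0.38, adjusted p = 0.578). Hsp83 and the transcription factor Hsf did not pass either (log2 fold change −0.23 and −0.01, adjusted p = 0.568 and 0.88).

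Of 14 genes of protein folding in the endoplasmic reticulum 5 rose and 0 fell, all 5 by small amounts, and 9 did not pass the test. The list median was 0.19, and 2 of the 5 were called without the 3 marked libraries. Those 2 were Sil1, the nucleotide exchange factor of the reticulum's own Hsp70 (9.65 ± 1.12 against 13 ± 1.49 CPM, SD, n = 4; log2 fold change 0.43, SE 0.10, adjusted p = 0.0019), and Ero1L, the oxidase that drives disulfide formation (0.39, SE 0.09, adjusted p = 0.00145). The lectin chaperones Cnx99A (0.26) and Calr (0.29) and the disulfide isomerase ERp60 (0.29, SE 0.08, adjusted p = 0.0138) made up the rest. ERp60 was not called without Hsp70-null replicate 2 or w1118 replicate 1 or 2 (adjusted p of 0.0528 to 0.0615) or without the 3 (0.105), and 3 genes of the list were called without Hsp70-null replicate 2 or without w1118 replicate 1.

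Several genes of w1118 legs were nearly without counts in Hsp70-null. The clearest was Map205 (3R, 32055279 to 32068441), which encodes a large microtubule-associated protein. It was at 205, 214, 198 and 181 CPM in w1118 and at 0, 0.0816, 0.243 and 0.0825 CPM in Hsp70-null (log2 fold change −10.91, SE 0.47, adjusted p = 3.85e-18). The lowest w1118 library stood far above the highest Hsp70-null library, and the value without the 3 marked libraries was −10.16. CG43149 (3L, 53873 to 54751) was at 11.4, 8.65, 11.2 and 11.1 CPM in w1118, had no count in Hsp70-null and was therefore at least 96.7-fold lower (adjusted p = 3.16e-14). The methuselah-like receptor mthl8, which lies near it on 3L (22428 to 26308), was at 26.9, 28.7, 27 and 27.6 CPM in w1118 and at 0, 0, 0.0693 and 0.0413 CPM in Hsp70-null. That is a ratio of 1028 with a 95% counting interval of 352 to 4985. The proton pump gene VhaM9.7-c was at 20.1 to 22.6 CPM in w1118 and had 3 counts in all in Hsp70-null, a ratio of 792 (271 to 3842). It lies inside Teh2 on the same strand, and how the counting divided reads there is not known.

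Other genes fell to a lower but measurable level. The DNA photolyase phr fell from 38.8, 39.9, 48 and 41.4 CPM to 1.98, 1.59, 1.66 and 2.56 CPM (log2 fold change −4.43, SE 0.16, adjusted p = 4.73e-20). The chitinase gene Cht10 fell from 66.6, 57.5, 60.6 and 68.6 CPM to 6.08, 5.87, 5.27 and 5.12 CPM (−3.50, SE 0.19, adjusted p = 1.47e-15). In both genes every Hsp70-null library lay far below every w1118 library, and the values without the 3 marked libraries, −4.35 and −3.58, were close to these. The 12 lower genes of this and the preceding paragraph were picked as not overlapping and called without the 3. Neither trait is therefore a separate result. The odorant-binding proteins lush, which binds the male pheromone, and Obp83a fell by 3.62 and 5.20 on the log2 scale (adjusted p = 5.1e-12 and 2.29e-08), from means of 16.2 ± 6.87 and 5.69 ± 1.06 CPM (SD, n = 4). CG31832, CG17974 and CG13313, for which no role is given here, fell by 6.80, 6.23 and 6.00 from means of 6.10 to 6.18 CPM. The last of the 12, Vha68-3, a variant of the catalytic subunit of the proton pump, was at 20.2, 5.78, 7.01 and 8.2 CPM in w1118 against 0.756, 1.67, 0.208 and 0.0825 CPM in Hsp70-null (−3.92, SE 1.18, adjusted p = 0.0193). Its highest value was in the library with testis markers. The call was lost without that library (−3.36, adjusted p = 0.0581) or without Hsp70-null replicate 3 or 4 (adjusted p = 0.0627 and 0.0625). Without all 3 marked libraries the gene was called (−5.52, adjusted p = 0.049), which the choice of these 12 required. In untrained flies it was called too (−5.32, adjusted p = 0.00321).

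The reverse pattern was led by lysozyme genes, which encode digestive enzymes of the midgut that cut bacterial cell walls. LysB (3L, 1207371 to 1207981) was at 0.239, 0.0653, 0.086 and 0.0675 CPM in w1118 and at 15.6, 53.3, 72.5 and 246 CPM in Hsp70-null (log2 fold change 9.66, SE 1.36, adjusted p = 2.36e-06). LysD was at 0.043 to 0.304 CPM in w1118 and at 32.9, 121, 152 and 442 CPM in Hsp70-null (9.77, SE 1.35, adjusted p = 1.77e-06). Within Hsp70-null the order of the 4 libraries in both genes was the order of their gut marker sums, from 1969.5 CPM in replicate 1 to 17003 CPM in replicate 4. Between the strains the orders differed. In w1118 replicate 1 the gut sum was 9006 CPM with LysB at 0.239 CPM. In Hsp70-null replicate 1 the gut sum was 1969.5 CPM with LysB at 15.6 CPM. The part of gut RNA in the lysozyme difference was not tested. LysE rose by 7.32 (SE 1.52, adjusted p = 0.000644), and LysC, with 2 counts in all of w1118, had a ratio of 1076 (95% counting interval 298 to 8887). The relative LysP, at 71.4 to 159 CPM in w1118 against 29.7 to 146 CPM in Hsp70-null, did not pass the test (−0.26, SE 0.56, adjusted p = 0.81), and neither did LysX (adjusted p = 0.924). The 4 genes that rose lie side by side inside mwh and are near copies of each other, so their separate counts are uncertain.

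Of the other genes high in Hsp70-null, prom, which encodes the membrane protein prominin, was at 0.135 to 0.522 CPM in w1118 and at 29.4, 6.81, 7.59 and 8.83 CPM in Hsp70-null (log2 fold change 5.34, SE 0.69, adjusted p = 4.52e-07). Its highest value was in the library with eye markers, and without the 3 marked libraries its log2 fold change was 4.54 (adjusted p = 7.17e-05). CG12934 was at 0.344 to 0.479 CPM in w1118 and at 52.6, 26.9, 1.39 and 36.5 CPM in Hsp70-null (6.05, SE 1.44, adjusted p = 0.00281). Replicate 3 stood low among the Hsp70-null libraries without reaching the w1118 range, and with marker sums as covariates the gene was not called (adjusted p = 0.0766). hll was at 0.129 to 0.424 CPM in w1118 against 4.01 to 18 CPM in Hsp70-null (4.83, SE 0.84, adjusted p = 6.46e-05). These 3 genes were picked as called without the 3 marked libraries and not overlapping between the groups. Neither trait is therefore a separate result.

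**Figure D3:**
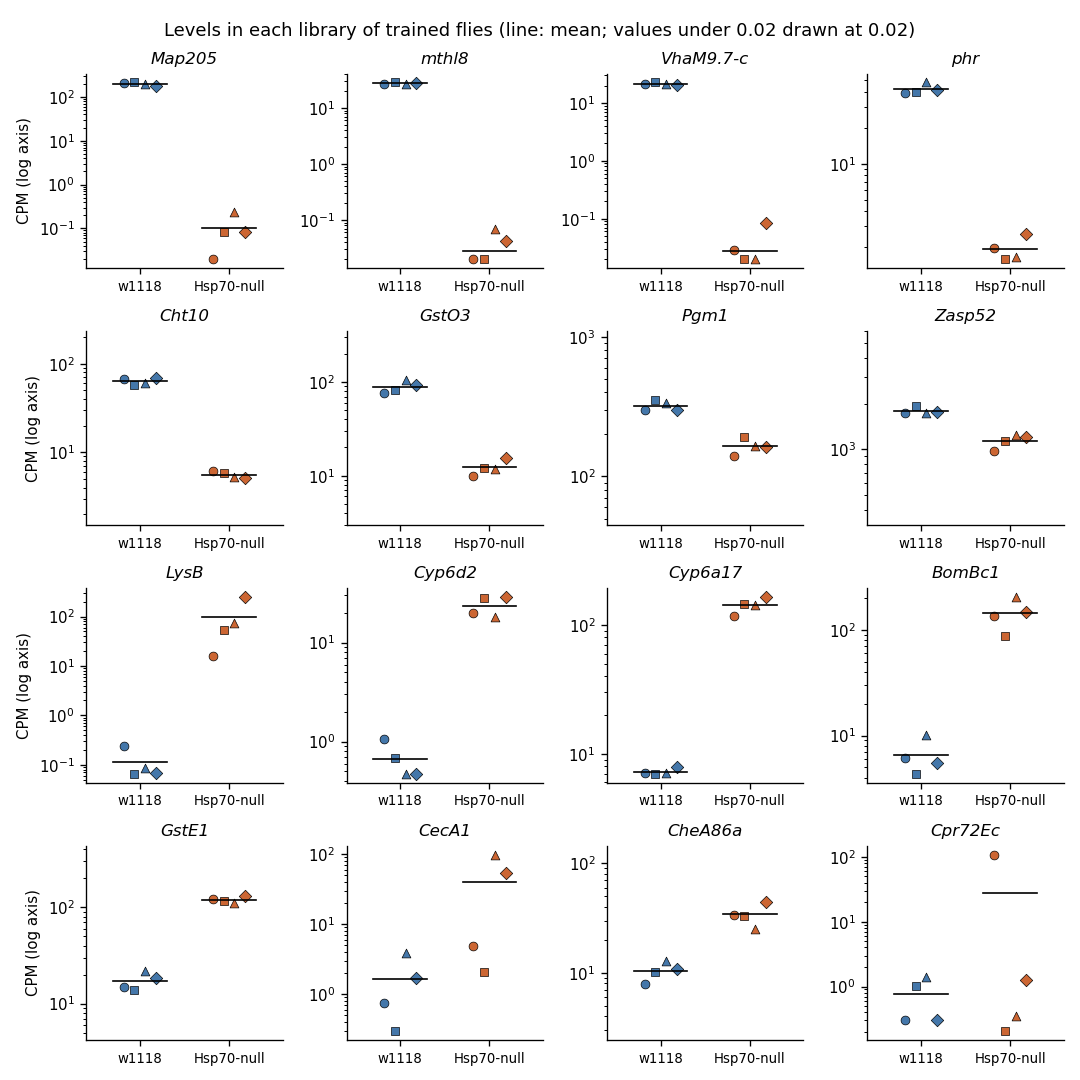
CPM (log axis) of 16 genes in each library of trained flies, w1118 in blue and Hsp70-null in orange, with a symbol for each replicate and a line at the mean; values under 0.02 are drawn at 0.02. Map205 was at 181 to 214 in w1118 and at most 0.243 in Hsp70-null, Pgm1 at 298 to 350.1 and at 140.3 to 193, and Cpr72Ec was high in Hsp70-null replicate 1 alone (108).

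Detoxification genes changed in both directions. Of 77 cytochrome P450 genes tested, 22 rose and 13 fell in Hsp70-null (median 0.21), and 26 of the 77 were called without the 3 marked libraries. Among all features 8.41% rose and 7.17% fell. Cytochromes P450 oxidise fatty acids, hormones and plant toxins. Cyp6a17 was at 7.08, 6.98, 7.05 and 7.93 CPM in w1118 and at 118, 145, 143 and 164 CPM in Hsp70-null (log2 fold change 4.29, SE 0.24, adjusted p = 1.49e-15). Its neighbour in the same cluster, Cyp6a23, went the other way, from 125 to 148 CPM in w1118 to 25.7 to 52.9 CPM (−1.83, SE 0.22, adjusted p = 9.76e-08). Cyp6a23 and the genes of the next sentence that fell were chosen after their values were seen. Cyp9c1 fell by 3.46 (adjusted p = 4.15e-12) and Cyp4d21 fell from 749 to 1237 CPM in w1118 to 391 to 539 CPM (−1.04, SE 0.25, adjusted p = 0.00365; 0.0672 without the 3). Cyp6d2 rose from 0.473 to 1.06 CPM to 19.8, 27.9, 18.1 and 28.7 CPM (5.12, SE 0.37, adjusted p = 2.05e-12). Cyp4p2 rose by 5.53 (SE 0.62, adjusted p = 2.95e-08) and Cyp12d1-p by 4.60 (SE 0.55, adjusted p = 1.37e-07), each highest in Hsp70-null replicate 2 (19.4 and 27.3 CPM). Cyp6a17, Cyp6a23 and other genes of this family are related copies, and the counting of reads shared between copies is not known.

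Glutathione transferases, which attach glutathione to reactive compounds, leaned towards Hsp70-null: 14 of 34 rose and 2 fell, with a median of 0.52, and 11 and 2 were called without the 3 marked libraries. The shares over all features were 8.41% higher and 7.17% lower. GstE1 was at 14.8, 14, 21.9 and 18.4 CPM in w1118 and at 122, 116, 111 and 129.7 CPM in Hsp70-null (log2 fold change 2.79, SE 0.18, adjusted p = 1.04e-13). GstD1 was at 351 to 494 CPM and 655 to 782 CPM (0.88, SE 0.13, adjusted p = 3.03e-06). Both that fell were of the omega class. GstO3 was at 76.5, 81.9, 104 and 94.1 CPM in w1118 and at 9.95, 12, 11.8 and 15.4 CPM in Hsp70-null (−2.86, SE 0.14, adjusted p = 3.66e-17), and GstO1 fell by 0.72 (adjusted p = 0.00017). GstE14, an enzyme of ecdysone synthesis, was at 0.0342 to 0.196 CPM in w1118 against 6.92, 1.14, 0.728 and 0.66 CPM in Hsp70-null (4.19, SE 0.92, adjusted p = 0.00131), highest in the library with eye markers, and was not called without the 3 (2.12, adjusted p = 0.197). Among 24 antioxidant genes 1 rose and 1 fell. The metallothionein MtnA was at 192 ± 35.9 CPM in w1118 against 418 ± 171 CPM in Hsp70-null (SD, n = 4; 1.12, SE 0.31, adjusted p = 0.0116), a call lost without Hsp70-null replicate 3 (0.87, adjusted p = 0.0711). The extracellular superoxide dismutase Sod3 fell by 0.34 (SE 0.09, adjusted p = 0.00615), and was not called when the compared groups were fitted alone (−0.32, adjusted p = 0.115).

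Several immune effectors were higher in Hsp70-null, with wide spread between pools. Of 17 antimicrobial peptide genes, 6 rose and 0 fell, 16 of 17 log2 fold changes were above 0, and the median was 1.4. CecA2, a cecropin, was at 0.239, 0.0979, 1.98 and 0.472 CPM in w1118 and at 6.05, 3.18, 81.8 and 39.3 CPM in Hsp70-null (log2 fold change 5.60, SE 1.14, adjusted p = 0.000545). CecA1 was at 0.294 to 3.83 CPM and at 4.8, 2.04, 98 and 53.2 CPM, with overlap (4.61, SE 1.14, adjusted p = 0.00408). In both strains replicates 3 and 4 were high and replicates 1 and 2 low, and the same was true of AttA (3.18, SE 1.12, adjusted p = 0.0497) and of AttC and DptB, which did not pass the test (adjusted p = 0.423 and 0.257). AttA was not called without Hsp70-null replicate 3 or 4 or w1118 replicate 1, 2 or 4 (adjusted p of 0.0855 to 0.245), nor with the replicate number as a block (0.0639). Without the 3 marked libraries it was called (3.8, adjusted p = 0.0288). CecA1 was not called when the compared groups were fitted alone (0.0709). Drosomycin (Drs), the classical target of the Toll pathway, was at 48.8 to 95.6 CPM in w1118 against 50.2 to 258 CPM in Hsp70-null (1.19, SE 0.46, adjusted p = 0.0821; 1.75, adjusted p = 0.0385 without the 3).

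Toll effectors of the Bomanin group were split: 6 of 17 listed genes rose and 1 fell, with a median of 0.18, and 3 were called higher and 0 lower without the 3 marked libraries. BomBc1 was at 6.19, 4.34, 10.2 and 5.47 CPM in w1118 and at 135, 87, 203 and 146 CPM in Hsp70-null (log2 fold change 4.45, SE 0.52, adjusted p = 7.43e-08). BomS4 rose from 17.9 ± 1.77 to 75.3 ± 21 CPM (SD, n = 4; 2.07, SE 0.28, adjusted p = 9.95e-07). The related BomBc2 and BomBc3 did not pass the test (0.02 and 0.13, adjusted p = 0.978 and 0.689). SPH93, a serine protease homologue, was at 0.359 to 1.76 CPM and 6.04 to 19.8 CPM (3.83, SE 1.22, adjusted p = 0.0275) and lost its call without Hsp70-null replicate 4 or w1118 replicate 1, 2 or 4 (adjusted p of 0.0507 to 0.084) or without the 3 (0.0977). The count of higher calls in this list was also 3 without w1118 replicate 4 alone.

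Of the genes of recognition and signalling, 2 of 13 and 4 of 18 passed the test, against 15.6% of all features. PGRP-LC, the membrane receptor for bacterial peptidoglycan, was at 86.2, 83.4, 102 and 95.5 CPM in w1118 and at 119, 124, 149.6 and 167 CPM in Hsp70-null (log2 fold change 0.61, SE 0.11, adjusted p = 8.49e-05). Its neighbour PGRP-LA rose by 0.62 (SE 0.11, adjusted p = 4.64e-05), and these were the 2 calls among 13 genes of the peptidoglycan recognition list (2 higher, 0 lower). Of 18 members of the Toll and IMD pathways 2 rose and 2 fell, with a median of −0.0066. The NF-kappaB factor Rel rose by 0.33 (SE 0.11, adjusted p = 0.0448) and the initiator caspase Dredd by 0.26 (SE 0.08, adjusted p = 0.0186). The receptor Tl fell by 0.32 (SE 0.09, adjusted p = 0.0164) and SPE, the protease that activates its ligand, by 0.42 (SE 0.12, adjusted p = 0.0153). Rel was not called without any 1 of 6 libraries, w1118 replicates 1, 2 and 4 and Hsp70-null replicates 1, 3 and 4 (adjusted p of 0.0663 to 0.188). Tl was not called without Hsp70-null replicate 2 or w1118 replicate 4 (adjusted p = 0.104 and 0.0538), nor SPE without w1118 replicate 3 (0.112) or without the 3 marked libraries (0.132). Rel and Tl were called without the 3 (0.48 and −0.38, adjusted p = 0.0158 and 0.0109). As single libraries were left out, the count of higher calls in the Toll and IMD list was 0 to 2 and that of lower calls 1 to 3. With the replicate number as a block Rel was not called (adjusted p = 0.0553). Rel lies inside the gene Nmdmc on the same strand.

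Turandot genes encode products secreted by fat body under stress. Of 4 tested 2 fell and 0 rose, and 1 was called without the 3 marked libraries. The median was −0.74, and 1 of the 4 had a log2 fold change above 0 (1.74). TotX was at 33.8, 41, 55.5 and 53.9 CPM in w1118 and at 27.2, 19.6, 12.8 and 20.5 CPM in Hsp70-null (log2 fold change −1.20, SE 0.29, adjusted p = 0.00307). TotA was at 109 to 172 CPM in w1118 against 5.93, 5.38, 16.1 and 57.4 CPM in Hsp70-null (−2.68, SE 0.78, adjusted p = 0.0147). The groups did not overlap in either gene. TotA was not called without Hsp70-null replicate 1 or 2 (adjusted p = 0.0542 and 0.0536), and without all 3 marked libraries its adjusted p was 0.256. The fat body marker Lsp2, a storage protein, was at 1229.6 to 4320 CPM in w1118 against 309 to 945 CPM in Hsp70-null (−1.93, SE 0.67, adjusted p = 0.048; 0.265 without the 3).

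Muscle genes gave calls in both directions. Of 31 sarcomere genes 4 rose and 2 fell, with a median of 0.052, against 8.41% and 7.17% of all features. Without the 3 marked libraries 2 were called in each direction. Zasp52, which links actin filaments at the Z disc, was at 1736, 1939.7, 1734 and 1770 CPM in w1118 and at 977, 1135, 1245 and 1199 CPM in Hsp70-null (log2 fold change −0.66, SE 0.09, adjusted p = 9.53e-07). Act88F, the actin of indirect flight muscle, fell from 70.2, 112, 40.5 and 53.1 CPM to 22.9, 22.1, 28.1 and 23 CPM (−1.52, SE 0.27, adjusted p = 9.89e-05). Both genes were without overlap, and both were called without the 3 (−0.57 and −1.43). Those that rose were the actin gene Act57B (0.42, SE 0.12, adjusted p = 0.0141), the tropomyosin gene Tm2 (0.43, SE 0.11, adjusted p = 0.00688), Mf, which encodes myofilin of the thick filament (0.36, SE 0.10, adjusted p = 0.0147; 0.0581 without the 3), and flightin, fln. The last was at 9.26 ± 0.739 CPM in w1118 against 17 ± 5.44 CPM in Hsp70-null (SD, n = 4; 0.88, SE 0.27, adjusted p = 0.0249), and was not called without Hsp70-null replicate 2 or 3 or w1118 replicate 1 or 4 (adjusted p of 0.0524 to 0.131) or without the 3 (0.202). Without Hsp70-null replicate 3, or without w1118 replicate 4, the list had 2 higher calls. Act88F, Mf and fln are also on the list of 5 flight muscle markers. That list summed to 2843 to 2954 CPM in w1118 against 3315 to 3690.3 CPM in Hsp70-null, without overlap. Most of the sum was Mf, at 2527 to 2666 CPM of the total count in w1118 and 3036 to 3362 CPM in Hsp70-null. Mf stood far above Act88F and fln, so the sum follows this 1 gene and is no measure of flight muscle RNA. The 5 markers did not share 1 direction: 2 were called higher and 1, Act88F, lower. The part of flight muscle RNA in these values was not tested.

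In calcium handling, 3 of 13 genes rose and 0 fell (1 fell without w1118 replicate 3). SclA and SclB, which encode the sarcolamban peptides that inhibit the calcium pump of the sarcoplasmic reticulum, share 1 transcript and so the same reads. They were at 18.9 to 31.5 CPM (SclA) in w1118 and 38.9, 41.9, 48.8 and 46.9 CPM in Hsp70-null (log2 fold change 0.87, SE 0.13, adjusted p = 1.18e-05) and count as 1 result. The third call was calmodulin, Cam, at 961, 983, 980.1 and 910 CPM in w1118 against 1612, 1113, 1033 and 952 CPM in Hsp70-null (0.30, SE 0.10, adjusted p = 0.038). Its high value was in the library with eye markers. Without that library the log2 fold change was 0.11 (adjusted p = 0.366), and without any 1 of the 4 w1118 libraries its adjusted p was 0.0593 to 0.102. It was 0.888 without the 3 and 0.0503 with the replicate number as a block.

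Enzymes of sugar storage and glycolysis leaned towards lower levels in Hsp70-null. In the trehalose and glycogen list 0 of 10 rose and 4 fell, all 10 log2 fold changes were below 0, and the median was −0.34. Pgm1, the phosphoglucomutase that joins glycogen to glycolysis, was at 298, 350.1, 335 and 299.8 CPM in w1118 and at 140.3, 193, 165 and 163 CPM in Hsp70-null (log2 fold change −0.96, SE 0.14, adjusted p = 7.4e-06). UGP, which makes the UDP-glucose used for glycogen, fell from 542 ± 65.5 to 339 ± 45.1 CPM (SD, n = 4; −0.68, SE 0.12, adjusted p = 0.000141). Glycogen synthase, GlyS, fell from 353 ± 29 to 255 ± 28.3 CPM (−0.46, SE 0.09, adjusted p = 0.000312). These 3 were without overlap and were called without the 3 marked libraries. The fourth was the trehalose transporter Tret1-1 (−0.40, SE 0.12, adjusted p = 0.0182; 0.299 without the 3). Glycogen phosphorylase, GlyP, and trehalase, Treh, did not pass the test (−0.08 and −0.10, adjusted p = 0.653 and 0.463).

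Of 17 glycolysis genes 0 rose and 5 fell, against 8.41% and 7.17% of all features, with a median of −0.22. Gpdh1, the glycerol-3-phosphate dehydrogenase of the muscle shuttle, was at 674, 682, 711 and 682 CPM in w1118 and at 417, 575, 435 and 463 CPM in Hsp70-null (log2 fold change −0.54, SE 0.11, adjusted p = 0.000396). Tpi fell by 0.52 (SE 0.11, adjusted p = 0.00079), Pgi by 0.36 (SE 0.10, adjusted p = 0.00778), and PyK and Hex-A by 0.29 and 0.22 (adjusted p = 0.0329 and 0.0182). Gpdh1, Tpi and Pgi were also called without the 3 marked libraries. Without Hsp70-null replicate 1 the counts were 1 higher and 3 lower, and without w1118 replicate 3 the lower count was also 3. Pgi missed the threshold when the compared groups were fitted alone (adjusted p = 0.0522) or with marker sums as covariates (0.0552). Among the others, the aldolase gene Ald1 was at 2653 to 3316 CPM and 2906 to 3986 CPM (0.21, SE 0.10, adjusted p = 0.153). The variants Ald2 and Pglym87 were high only in w1118 replicate 1 (9.44 and 8.69 CPM), the library with testis markers, and did not pass the test.

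Of 15 lipid genes 2 rose and 1 fell, against 8.41% and 7.17% of all features, with a median of 0.064. midway (mdy), which makes triglyceride from diglyceride, was at 37.3, 42.3, 52.3 and 51.6 CPM in w1118 and at 74.4, 78.2, 87.4 and 97.3 CPM in Hsp70-null (log2 fold change 0.88, SE 0.15, adjusted p = 5.33e-05; 0.92 without the 3). The lipase Lip4 rose by 0.67 (SE 0.17, adjusted p = 0.00676; 0.108 without the 3). The carnitine palmitoyltransferase whd fell by 0.39 (SE 0.12, adjusted p = 0.0209), a call lost without Hsp70-null replicate 1 or w1118 replicate 1 (adjusted p = 0.0603 and 0.142) or without the 3 (0.321).

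Nuclear genes of oxidative phosphorylation gave 0 calls among 76 tested (edgeR), with a median of −0.046. In that list 6 genes had an unadjusted p under 0.05, DESeq2 called 1, and edgeR called 1 without the 3 marked libraries or without w1118 replicate 1. Proteins of the mitochondrial ribosome gave 1 higher and 9 lower calls among 73, with a median of −0.09, and 2 higher without Hsp70-null replicate 3 or w1118 replicate 2. mRpL4 fell from 21.9, 23.2, 23.9 and 22.6 CPM to 12.7, 14.8, 15.4 and 14.6 CPM (log2 fold change −0.67, SE 0.10, adjusted p = 2.78e-06) and mRpS6 by 0.60 (adjusted p = 3.25e-05), while mRpL39 rose from 9.84 ± 0.651 to 17.1 ± 2.15 CPM (SD, n = 4; 0.80, SE 0.13, adjusted p = 4.42e-05). Of 85 cytosolic ribosomal genes 72 had log2 fold changes above 0, with a median of 0.11, and 1 was called, the stalk protein gene RpLP1 (0.42, SE 0.12, adjusted p = 0.0119; 0.0701 without Hsp70-null replicate 2 and 0.111 without the 3). The count of higher calls in this list was 3 without Hsp70-null replicate 1 or w1118 replicate 3, and 0 without Hsp70-null replicate 2. Of 32 proteasome genes 29 were at or below 0, with a median of −0.16, and 2 were called lower. These were the core subunit gene Prosbeta3 (−0.31, SE 0.09, adjusted p = 0.0197) and the regulatory particle gene Rpn1 (−0.26, SE 0.08, adjusted p = 0.0171). Neither was called without Hsp70-null replicate 1 or w1118 replicate 2, Prosbeta3 also not without Hsp70-null replicate 3, nor Rpn1 without Hsp70-null replicate 2 (adjusted p of 0.0511 to 0.11) or without the 3 (0.236). The count of proteasome genes called lower ranged from 0 to 5 as single libraries were left out.

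Most CheA and CheB genes were higher in Hsp70-null. They encode small secreted proteins of gustatory bristles, several of which are expressed in the male forelegs that touch a female during courtship. Of 20 tested, 15 rose and 0 fell, against 8.41% and 7.17% of all features. The median was 0.88, and 13 were called without the 3 marked libraries. CheA86a was at 7.94, 10.1, 12.7 and 10.8 CPM in w1118 and at 33.9, 33.4, 25 and 44.3 CPM in Hsp70-null (log2 fold change 1.71, SE 0.21, adjusted p = 1.91e-07). CheB53a and CheB53b, neighbours on 2R, rose by 1.62 and 1.67 (SE 0.19 and 0.23, adjusted p = 1.13e-07 and 1.37e-06). CheA75a was at 105 to 168 CPM and 234 to 337 CPM (1.07, SE 0.23, adjusted p = 0.00106). CheB38a, CheB38b, CheB38c, CheB42a and CheB42c did not pass the test (−0.13 to 0.45).

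Odorant-binding proteins, which carry odorants in the fluid of sensory hairs, were changed in both directions, 9 higher and 10 lower of 37, and 4 and 8 without the 3 marked libraries. For all features the shares were 8.41% and 7.17%. Obp56d was at 595, 501, 972 and 839.9 CPM in w1118 and at 1156, 984, 1882 and 1939 CPM in Hsp70-null (log2 fold change 1.04, SE 0.23, adjusted p = 0.00172). Obp57a fell from 244 to 298 CPM to 126 to 196 CPM (−0.78, SE 0.14, adjusted p = 6.93e-05). Calls in 2 of these genes came from 1 library each. Obp56f was at 15 CPM in Hsp70-null replicate 2, the library with accessory gland markers, and at 0 to 0.116 CPM in the other 7 (adjusted p = 0.0235). Without that library its adjusted p was 0.72, and without w1118 replicate 2, 3 or 4 it was 0.0658 to 0.0707. With the replicate number as a block it was 0.0579. Obp56h was at 4.86 CPM in Hsp70-null replicate 1, the library with eye markers, and at 0 to 0.104 CPM in the others (adjusted p = 0.00598; 0.452 without it).

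Cuticle protein genes gave 7 higher and 3 lower calls among 32, against 8.41% and 7.17% of all features, with a median of 0.23. Cpr49Aa was at 0.889 to 2.41 CPM in w1118 against 3.49 to 7.35 CPM in Hsp70-null (log2 fold change 1.94, SE 0.29, adjusted p = 7.3e-06), and Cpr97Eb fell from 10.3 to 11.4 CPM to 3.36 to 5.22 CPM (−1.44, SE 0.20, adjusted p = 1.97e-06). Cpr51A rose by 2.71 (SE 0.63, adjusted p = 0.00227; 0.0563 without the 3). The largest value of the list rested on 1 library: Cpr72Ec was at 108 CPM in Hsp70-null replicate 1, with eye markers, and at 0.204 to 1.42 CPM in the other 7. Its log2 fold change of 5.18 (adjusted p = 0.0139) became −0.35 (adjusted p = 0.886) without that library. The count of higher calls was 4 without Hsp70-null replicate 4. Methuselah-type receptors, a family named for a gene of fly lifespan, gave 3 calls in each direction among 11. Beside mthl8, mthl9 rose from 1.13 ± 0.219 to 7.44 ± 2.06 CPM (SD, n = 4; 2.72, SE 0.29, adjusted p = 8.85e-09) and mthl3 fell by 0.73 (SE 0.15, adjusted p = 0.000422), while methuselah itself, mth, rose by 0.33 (SE 0.09, adjusted p = 0.00701; 0.107 without the 3).

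**Figure D4:**
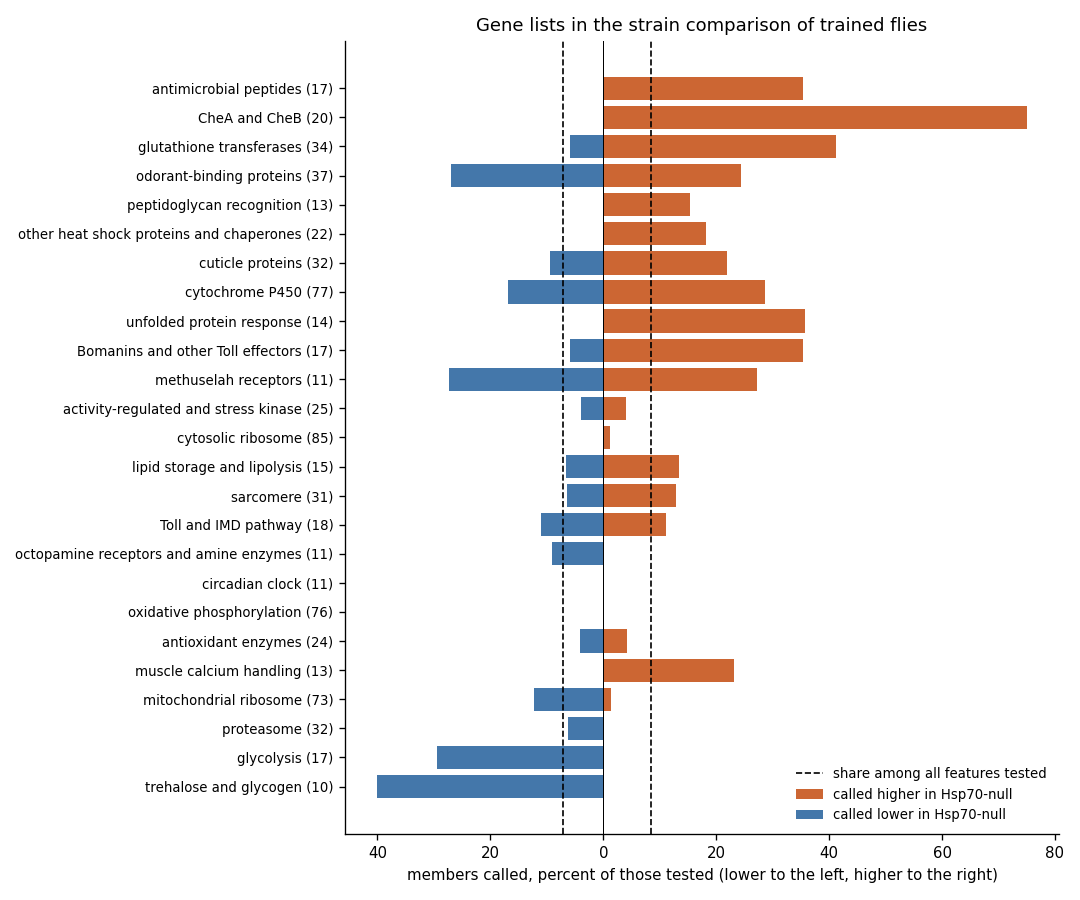
Share of the tested members of each gene list of 10 or more genes (number tested in brackets) called higher (orange, to the right) and lower (blue, to the left) in trained Hsp70-null flies, sorted by median log2 fold change, with dashed lines at the share among all tested features (8.41% and 7.17%). CheA and CheB genes reached 15 of 20 higher and trehalose and glycogen genes 4 of 10 lower; oxidative phosphorylation and circadian clock genes had no call.

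Of 25 genes linked to activity and stress kinases 1 rose and 1 fell, with a median of 0.12. The counts were 2 and 2 without w1118 replicate 3, and 2 fell without Hsp70-null replicate 2 or w1118 replicate 2. Sestrin (Sesn), which responds to exercise and restrains TOR, rose from 174 ± 9.23 to 222 ± 11.6 CPM (SD, n = 4; log2 fold change 0.35, SE 0.08, adjusted p = 0.0032), and CG46429, which lies inside it on the same strand, carried the same reads. The JNK phosphatase puc fell from 80.8, 83.6, 69.6 and 79 CPM to 62, 49.5, 50.3 and 46.7 CPM (−0.59, SE 0.09, adjusted p = 1.48e-05). Among 11 genes of octopamine signalling, which is needed for the exercise response of flies, 1 was called, the receptor Oamb (−0.44, SE 0.15, adjusted p = 0.0394). Oamb was at 15.8 CPM in Hsp70-null replicate 1 and 8.08 to 9.67 CPM in the other 3, against 12.9 to 15.8 CPM in w1118, and its call was lost without w1118 replicate 2, 3 or 4 or Hsp70-null replicate 2, 3 or 4 (adjusted p of 0.0621 to 0.168). Without Hsp70-null replicate 1 the list had 2 lower calls. The circadian clock list gave 0 calls among 11 by edgeR, where 1 had an unadjusted p under 0.05, and 0 by DESeq2. The clock genes per and tim had log2 fold changes of 0.16 and 0.08 (adjusted p = 0.674 and 0.889).

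Transposable element copies were called more often than genes: 54 rose and 66 fell of 514 tested (23.3%), against 967 and 776 of 11559 protein-coding genes (15.1%), with no test of that difference. The copy FBti0019898 was at 0.559 to 1.11 CPM in w1118 and at 159, 162, 158 and 141 CPM in Hsp70-null (log2 fold change 7.42, SE 0.24, adjusted p = 1.2e-21). FBti0020448 had 2 counts in all of w1118 and was at 8.29 to 12.8 CPM in Hsp70-null, a ratio of 596 (95% counting interval 165 to 4925). In the other direction FBti0019165 was at 4.83 to 9.13 CPM in w1118 with 1 count in Hsp70-null, a ratio of 789 (142 to 31174), and FBti0060056 fell by 5.88 (SE 0.51, adjusted p = 1.21e-10). Copies of one element share sequence, and 3 of these 4 overlap another feature on the same strand (FBti0020448 does not), so a value may belong to a neighbour or to another copy. Some reads seem to stand in more than 1 row. FBti0060056 and FBti0019250, which overlaps it on the same strand, each had 4173 counts in the 8 libraries. The counts of called copies and the 23.3% were not corrected for such repeats. Antisense and long noncoding RNAs gave 61 higher and 76 lower calls of 684. asRNA:CR45822, antisense to the insulator gene CTCF, was at 13.3 to 15.4 CPM in w1118 and had 2 counts in Hsp70-null, a ratio of 796 (220.5 to 6577), and asRNA:CR44030 fell by 6.66 (SE 0.32, adjusted p = 3.66e-17). The hairpin RNA hpRNA:CR33940 rose by 3.62 (SE 0.32, adjusted p = 2.23e-10) and asRNA:CR45479 by 1.35 (SE 0.18, adjusted p = 7.48e-07).

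At the extreme, 12 features had 3 counts or fewer in each Hsp70-null library and at least 1 CPM in every w1118 library, and 13 showed the reverse. The first set held 4 protein-coding genes (mthl8, VhaM9.7-c, CG43149 and CG34190), 7 transposable element copies and 1 antisense RNA. The second held the protein-coding genes lectin-24A, CG3117, CG30486 and antr, together with LysC, 6 transposable element copies and 2 noncoding RNAs. antr is an accessory gland gene. By chromosome, the share of tested features called was 18.4% on 2R, 17.1% on 3L, 15.9% on 2L, 15.0% on 3R, 11.1% on X and 10.4% on chromosome 4. The 318 features within 1 Mb of the deleted genes were called at 14.8% and the rest of 3R at 15.0%.

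The strain difference after training was set beside the one in untrained flies of the same age, from separate libraries. Untrained flies gave 2300 calls (17.8%). Of the calls in trained flies 1462 were also called in untrained flies with the same sign (742 higher, 720 lower), which is 72.5% of the trained and 63.6% of the untrained calls, and 0 were called with opposite signs. The untrained log2 fold change was −9.79 for Map205, −10.07 for mthl8, −9.02 for VhaM9.7-c, −4.68 for phr, 4.12 for Cyp6a17 and 2.81 for GstE1, each with the sign found after training. The other 554 trained calls were not called in untrained flies, 443 of them with the same sign, and 104 of the 554 were also called without the 3 marked libraries. Marker sums of the untrained libraries are not given here. The median untrained log2 fold change was −2.5 for testis and −3.2 for accessory gland markers, against −3.7 and 7.8 in trained flies. In untrained flies 0 testis markers and 1 accessory gland marker were called. The part of organ RNA in the overlap or the interaction was not tested.

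Whether the strain difference itself changed with training was tested as an interaction. By edgeR the count was 0 of 12939 (0.00%). The unadjusted p was under 0.05 for 465, where 647 are expected by chance, and the lowest adjusted p was 0.734. DESeq2 called 38, with 555 at an unadjusted p under 0.05. The 3 features with the lowest edgeR p were CG10073, BORCS5, a subunit of the complex that positions lysosomes, and yellow-f, an enzyme of melanin synthesis. CG10073 was at 1.61, 2.09, 1.85 and 2.13 CPM in trained w1118 and at 4.25, 3.02, 3.85 and 3.3 CPM in trained Hsp70-null (log2 fold change 0.91, SE 0.19, adjusted p = 0.000843), against 2.12 in untrained flies. BORCS5 was at −0.16 and 0.24 in trained and untrained flies and yellow-f at 0.16 and 1.18. Among immune effectors, 11 of 17 antimicrobial peptide genes were called in untrained flies, with a median of 3.5, against 6 and 1.4 after training, and Drs was at 3.67 (adjusted p = 1.66e-06) against 1.19, with an adjusted interaction p of 0.734. Act88F was called in trained flies (−1.52) and not in untrained flies (−0.70, adjusted p = 0.0685), and this difference did not pass the interaction test either. In all 5 strain comparisons of the series, which share no library, 865 of the trained calls (42.9%) were called with one sign, 438 higher and 427 lower.

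**Figure D5:**
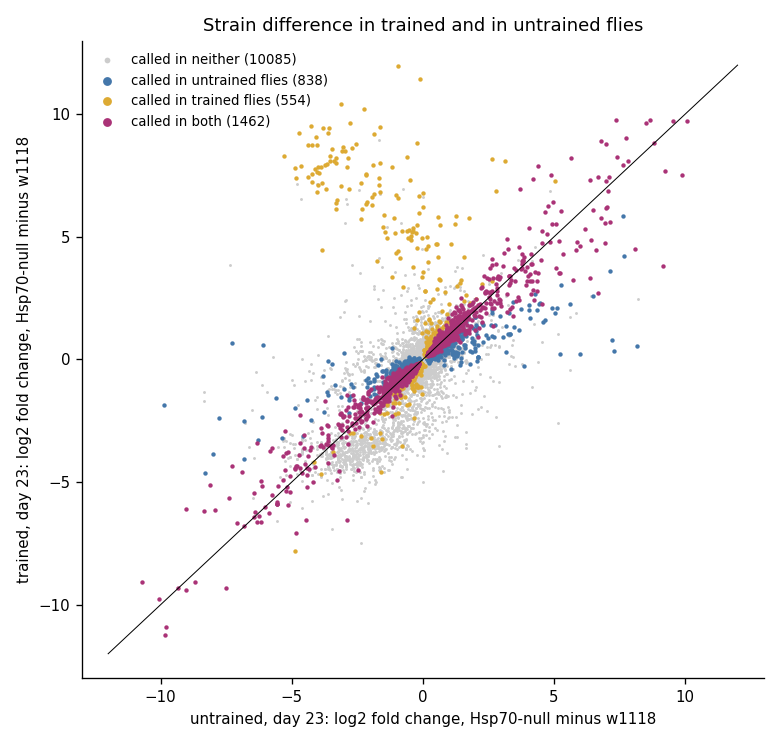
Log2 fold change between the strains (Hsp70-null minus w1118) in untrained flies (horizontal) and in trained flies (vertical) at day 23, for each tested feature, with a line at equality. Purple points (1462) were called in both and lie near the line; blue points (838) were called in untrained flies and not in trained flies, and yellow points (554) the reverse, with a group of these at log2 fold changes above 4 in trained flies.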

How the data were processed

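Leg RNA of 8 pools was compared, with the other 32 libraries of the series kept in the model to estimate the spread. The deposited table holds whole-number counts per feature, made by the authors, for 23932 features. HISAT2 2.1.0, kallisto 0.44.0 and the build BDGP6 are named per the submitters' processing notes. The counting tool, its annotation and its treatment of reads shared between copies or overlapping genes are not given in the sources used here. The authors' counts were used as deposited. Coordinates come from the Ensembl BDGP6.54 annotation, matched by FlyBase ID for 23851 features.

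From these counts, edgeR 4.0.16 (R 4.3.3, limma 3.58.1) fitted 1 mean per group over all 40 libraries with TMM scaling, filterByExpr and the quasi-likelihood test with 30 residual degrees of freedom. Benjamini-Hochberg adjustment covered the 12939 features tested, with a threshold of 0.05. The contrast was trained Hsp70-null minus trained w1118. The interaction was that difference minus the one in untrained flies. Each SE is the standard error of a log2 fold change.

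The members and the 28 gene lists and 10 marker lists were chosen with earlier results of these data known. Named genes followed a rule. They were the 6 deleted genes, and up to 12 genes in each direction with the largest change among those called with and without the 3 marked libraries, not overlapping, with at least 5 CPM in the higher group and not on another tissue's list. They were also up to 3 called members per list with at least 1 CPM, up to 2 in each direction among transposable element copies and among noncoding RNAs, and the 3 lowest interaction p-values. Other genes named were chosen after their values were seen.

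Replicate libraries were distinct, with chi-square per degree of freedom of 51.2 to 211 over 12 pairs. Scaling factors were 1.01 to 1.14. A fold against a group without counts uses a floor of 3 counts per library, and intervals are 95% exact counting intervals. Intervals and floors cover counting error only. Alternatives were other scalings and filters, DESeq2 1.42.0, the compared groups alone, a replicate block, leaving out each library or the 3 marked ones, and tissue marker sums as covariates.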

Additional observations from a re-analysis of the deposited data

Results flagged for a closer look

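Of 216 groups of 4 libraries examined, 24 held 1 library far from the other 3 by Dixon's criterion at 95%. Chance alone gives about 1 in 20 groups. For 5 summed marker lists these were the eye sum in Hsp70-null replicate 1 (15323 CPM), the accessory gland sum in Hsp70-null replicate 2 (2042 CPM), the testis sums in w1118 replicate 1 (1607 CPM) and Hsp70-null replicate 1 (349 CPM), and the blood cell sum in w1118 replicate 4 (1111 CPM).

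In Hsp70-null replicate 1 the separate values were prom at 29.4 CPM, Ero1L at 47.2 CPM (the lowest of its group), GstE14 at 6.92 CPM, Cpr72Ec at 108 CPM, Cpr51A at 9.48 CPM, Obp56h at 4.86 CPM and FBti0019165 at 0.0291 CPM. In Hsp70-null replicate 2 it was Obp56f at 15 CPM. In Hsp70-null replicate 3 they were hll at 18 CPM and Act88F at 28.1 CPM, and in replicate 4 Hsp70Bc at 0.0413 CPM.

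Among w1118 libraries, replicate 1 stood apart in LysB (0.239 CPM), Vha68-3 (20.2 CPM) and Obp56f (0.103 CPM). Replicate 2 did so in CG43149 (8.65 CPM, low) and CG31832 (11.6 CPM), replicate 3 in CG12934 (0.344 CPM, low) and l(2)efl (266 CPM), and replicate 4 in Cyp6a17 (7.93 CPM). Several of these values, such as those of Hsp70Bc, FBti0019165 and Obp56f in w1118, rest on 1 to 3 counts.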

How the results depend on the processing

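Of 2016 features called (1088 higher, 928 lower), 1295 were called when the compared groups were fitted alone (698 higher, 597 lower, with 11314 features tested), and 1261 without the 3 marked libraries (679 and 582). Leaving out single libraries gave 1626 to 1848 calls (823 to 1022 higher, 790 to 868 lower), 1284 to 1433 shared with untrained flies, and 0 for the interaction. RLE scaling gave 2062 (1151 and 911) and moved the median of all features by 0.0087, no filter gave 1837, at least 10 counts in every library 1587, robust fitting 1998, and DESeq2 2437 (1336 and 1101), with 38 for the interaction where edgeR gave 0. Marker sums as covariates, chosen after seeing the data, gave 1588 (753 and 835). Named genes changed sign in 4 cases: Cpr72Ec was at −0.35 without Hsp70-null replicate 1 (up to 5.65 without other single libraries), −0.20 without the 3 marked libraries and −0.68 with marker covariates, and Obp56f at −0.09 with marker covariates. The cause was not tested beyond the libraries named. Of the named genes' calls, 15 were lost with the compared groups alone, among them Sod3, Pgi and CecA1, and 14 with marker covariates, among them CG12934, Pgi and the 3 Hsp70 calls, counting the sign changes. With the replicate number as a block there were 1960 calls (1002 higher, 958 lower), 1506 shared with untrained flies and 0 for the interaction. It ended the calls of AttA, Rel, Cam, Cpr72Ec and Obp56f (adjusted p of 0.0503 to 0.102) and of no other named gene. Same-numbered libraries of the strains correlated at 0.135, 0.254, −0.0243 and 0.132 after removal of group means, and not every library correlated best with its own number, so the numbers were not taken to pair the pools. Genes at a few counts per library, such as the Hsp70 genes, are limited by depth.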

Other observations

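Outside the gene lists, 91 genes above 150 CPM in the higher group were called with and without the 3 marked libraries and did not overlap between the strains, 34 higher and 57 lower in Hsp70-null. Over all 12939 features tested, 1164 (9.0%) were called both ways, whether or not the libraries overlapped. The number of all genes above 150 CPM is not given here, so the 91 cannot be read as a share. The genes given here were chosen after their values were seen. Tep4, a thioester protein of the blood, was at 48.8, 47.8, 63.9 and 59.6 CPM in w1118 and at 789.8, 666, 868 and 934 CPM in Hsp70-null (log2 fold change 3.89, SE 0.14, adjusted p = 2.72e-20, edgeR). Ance-3 rose by 2.92 (SE 0.18, adjusted p = 4.74e-14). Ect3, which encodes a lysosomal beta-galactosidase, was at 258 to 396 CPM in w1118 and 24.2 to 62.3 CPM in Hsp70-null (−2.77, SE 0.30, adjusted p = 1.95e-08). Pdk, the kinase that switches off pyruvate dehydrogenase, was at 302, 389, 334 and 349 CPM in w1118 and at 65.6, 75.7, 69.4 and 65.2 CPM in Hsp70-null (−2.32, SE 0.12, adjusted p = 3.27e-16). Fhos, a formin of muscle actin filaments, fell from 494 to 1023 CPM to 218 to 289 CPM (−1.43, SE 0.19, adjusted p = 1.05e-06). Sodh-1, a sorbitol dehydrogenase, and Mal-A5, a maltase, fell by 1.27 and 1.04 (adjusted p = 0.00126 and 1.37e-12). All of these had the same sign and were called in untrained flies.

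The polyubiquitin gene Ubi-p5E was at 159, 166, 157 and 137 CPM in w1118 and at 396, 538, 397 and 373 CPM in Hsp70-null (log2 fold change 1.46, SE 0.13, adjusted p = 1.2e-10), without overlap. The other polyubiquitin gene, Ubi-p63E, went the other way, from 461 to 501 CPM to 259 to 317 CPM (−0.75, SE 0.10, adjusted p = 1.53e-06). Of the 8 subunits of the CCT chaperonin, which folds actin and tubulin, 3 rose (CCT1, CCT5 and CCT7) and 0 fell, with a median of 0.15. CCT1 was at 45.9 to 49.7 CPM and 54.9 to 62.6 CPM (0.27, SE 0.08, adjusted p = 0.0195). Without the 3 marked libraries these 3 missed the threshold, and CCT8 was called lower (−0.27, adjusted p = 0.0421).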
